A study of Mus musculus with 12 samples.

Results

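Replication-dependent histone genes and the genes of the linker histones were described in eosinophils sorted from inflamed mouse airways. The members were all rows of the deposited count table whose symbol had the form H1f, H2ac, H2bc, H3c or H4c followed by a number. There were 72 such genes among the 39666 genes of the table: 11 linker histone H1 genes, 18 H2A, 18 H2B, 12 H3 and 13 H4 genes. The study compared TREM-1+ with TREM-1- eosinophils, TREM-1 being an activating receptor of myeloid cells, by RNA sequencing of ribosomal-RNA-depleted total RNA. All mice were wild-type C57BL/6 animals of 8 to 12 weeks, sensitized with 20 µg ovalbumin and 4 mg of alum on days 0 and 7. They breathed a 1% ovalbumin aerosol for 40 minutes on days 16 to 18, and lungs were lavaged on day 19. Both fractions therefore came from allergic airways, and no unchallenged control was analysed here. Lavage fluid was pooled over animals, and each of 6 lavages gave 1 TREM-1+ and 1 TREM-1- library, so the 12 libraries formed 6 pairs. The sort gate took granular CD45+ cells positive for CD11b and Siglec-F whose CD11c and Ly6G were low to intermediate. How many mice went into a lavage was not given in the sources used here. The p-values rest on how the difference between the fractions varied from lavage to lavage.

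The core histones H2A, H2B, H3 and H4 form the octamer around which DNA is wound, and linker histone H1 binds the DNA where it enters and leaves that particle. Most of their genes lie in clusters and are copied into RNA in step with DNA synthesis, which supplies the histones that newly made chromatin needs. Their mRNAs end in a conserved stem-loop instead of a poly(A) tail. The stem-loop-binding protein SLBP holds this structure, and the U7 snRNP directs the cut behind it. Libraries primed on poly(A) miss much of this RNA, whereas ribosomal RNA depletion keeps it. The name of the set was only partly right for its content. Among the linker histones, H1f0 and H1f10 encode forms that are made outside S phase, H1f6, H1f7 and H1f9 encode testis forms, and H1f8 encodes the oocyte form. The core histone members were not sorted in this way, and not all of them need be replication-dependent. Mature eosinophils do not divide, and sorted bulk RNA cannot tell fewer cells that carry a transcript from less of it in each cell.

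The stem-loop was looked up over the whole length of the GENCODE vM21 mouse transcripts, since it is the mark of the replication-dependent 3′ end. A perfectly paired stem of 6 bases that begins with GG, closed by a loop of 4 bases that begins with TT, was found in transcripts of 44 of the 72 members, 40 of them among those tested. It was found in 185 of all 55450 genes with a transcript, or 0.334%. No such element was found in the annotated transcripts of the other 28 members, several of which hold the coding part alone, and none was found in those of H1f0. Of its 6 forms, 1 was present in 26 members, another in 7 and another in 6. The elements of the 5 members that differed between the fractions, and of the most abundant H1, H2A and H2B members, are given here 5′ to 3′, with the 16 bases of the stem-loop in capitals and 5 transcript bases on either side.
H1f2: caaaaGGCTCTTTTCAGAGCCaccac
H1f4: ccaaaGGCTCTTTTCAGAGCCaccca
H2ac18: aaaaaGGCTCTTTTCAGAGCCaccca
H2bc6: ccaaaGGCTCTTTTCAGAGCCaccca
H3c2: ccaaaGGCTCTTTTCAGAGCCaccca
H3c3: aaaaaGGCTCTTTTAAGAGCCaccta
H4c3: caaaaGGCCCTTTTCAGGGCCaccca
H4c14: ctaacGGCCCTTTTTAGGGCCaacca
H1f2, H1f4, H2ac18, H2bc6 and H3c2 carried the same stem and loop, so this form was found in a member that was lower in TREM-1+ cells, H1f2, and in one that was higher, H3c2. The annotated transcripts did not all end near the element. Past it, that of H1f2 ran on for 840 bases, H1f4 for 1153, H2bc6 for 1861, H4c3 for 454 and H4c14 for 1257. That of H2ac18 ran on for 35, H3c2 for 51 and H3c3 for 74. A match therefore does not show that the mRNA ends there.

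Promoters were taken from RefSeq (mouse build GRCm38.p6), which held an entry for 67 of the members. They are shown for the 3 leading linker histone genes, which were all low in lavage 6, and for 3 core histone genes that differed between the fractions. Each line gives the 150 bases before the gene's start, in the direction of the gene, with capitals for matches on either strand to the TATA box, whose letters are TATAAA, to the CCAAT box, and to the H1 box, whose letters are AAACACA.
H1f2, chr13:23738657-23738806, plus strand: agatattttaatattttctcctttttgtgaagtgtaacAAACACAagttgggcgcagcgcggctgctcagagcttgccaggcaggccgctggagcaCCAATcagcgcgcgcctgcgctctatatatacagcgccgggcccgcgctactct
H1f4, chr13:23622559-23622708, minus strand: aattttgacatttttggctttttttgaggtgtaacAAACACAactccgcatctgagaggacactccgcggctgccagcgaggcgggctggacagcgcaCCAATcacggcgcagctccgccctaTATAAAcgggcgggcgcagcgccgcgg
H1f3, chr13:23554882-23555031, plus strand: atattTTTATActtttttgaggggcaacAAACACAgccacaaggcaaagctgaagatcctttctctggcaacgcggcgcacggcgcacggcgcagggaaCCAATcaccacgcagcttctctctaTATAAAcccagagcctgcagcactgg
H4c3, chr13:23698459-23698608, minus strand: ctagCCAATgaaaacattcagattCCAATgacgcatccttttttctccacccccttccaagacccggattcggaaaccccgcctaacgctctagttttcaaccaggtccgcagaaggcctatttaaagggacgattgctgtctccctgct
H3c3, chr13:23745522-23745671, minus strand: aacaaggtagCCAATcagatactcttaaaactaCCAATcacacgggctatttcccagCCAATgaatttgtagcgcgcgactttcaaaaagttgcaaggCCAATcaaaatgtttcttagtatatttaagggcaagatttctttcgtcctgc
H3c2, chr13:23752195-23752344, plus strand: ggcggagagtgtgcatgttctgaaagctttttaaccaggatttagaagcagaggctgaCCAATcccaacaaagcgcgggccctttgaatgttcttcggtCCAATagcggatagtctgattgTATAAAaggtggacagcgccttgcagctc
Each of the 3 linker histone promoters held an H1 box and, nearer to the start, a CCAAT box. Over the 250 bases before the start, AAACACA was present in 5 of 11 H1 promoters and in 13.4% of member promoters, against 7.2% of all 27025 promoters. CCAAT was present in all 18 H2A and all 16 H2B promoters with an entry, in 8 of 11 H1, 8 of 10 H3 and 3 of 12 H4 promoters. That made 79.1% of members, against 37.5% of all promoters. TATAAA was present in 43.3% of members and 14.3% of all promoters. The octamer ATTTGCAT, which Oct-1 binds in H2B promoters, was present in 7 H2A and 7 H2B promoters and in none of the H1, H3 or H4 promoters, which made 20.9% of members against 1.81% of all promoters. TTTGGCGC, a site of the E2F type, was present in 0 member promoters and in 0.485% of all. A stretch could count for more than 1 motif, and a match describes sequence only.

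The libraries held 8626701 to 21234053 estimated counts, and members took 0.0922% to 0.181% of them. Trem1 itself averaged 93.1 ± 20.0 CPM in the TREM-1+ and 30.7 ± 8.1 CPM in the TREM-1- libraries (SD, n = 6 each), with a log2 fold change of 1.62 and higher values in 6 of 6 pairs. Here CPM means counts per 1000000 library counts, with library sizes scaled by the trimmed mean of M-values (TMM). Siglecf averaged 796 CPM in the TREM-1+ and 875 CPM in the TREM-1- libraries, and the 10 listed eosinophil markers summed to 3876 to 5990 CPM in the TREM-1+ and 3865 to 6148 CPM in the TREM-1- libraries. Of those 10 eosinophil markers, 3 were called higher and 5 lower in TREM-1+ cells, with a median log2 fold change of -0.15 and the lowest at -1.50 for Ear1, an eosinophil-associated ribonuclease. Markers of other leukocytes were present too. The 9 listed markers of T and innate lymphoid cells in the table summed to 10.3 to 125 CPM in the TREM-1+ and 8.8 to 64.1 CPM in the TREM-1- libraries. Their sum was higher in TREM-1+ cells in 6 of 6 pairs, and 7 of the 9 were called higher. Of 9 tested neutrophil markers 7 were called higher and 2 lower, yet the sum over the list was lower in TREM-1+ cells in 6 of 6 pairs, at 1464 to 2454 CPM in the TREM-1+ and 1766 to 2587 CPM in the TREM-1- libraries. Of 6 alveolar macrophage markers 3 were higher, and the sum over that list, 1211 to 1830 CPM in the TREM-1+ and 1123 to 1568 CPM in the TREM-1- libraries, was higher in 6 of 6 pairs. Of 7 listed early precursor genes only Cd34 and Kit were tested. Both were higher, and Elane and Ctsg of that list were at 0 in all libraries. The sum over the list was 375 to 536 CPM in the TREM-1+ and 288 to 457 CPM in the TREM-1- libraries, higher in 6 of 6 pairs.

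Of the 72 members, 60 had enough counts to be tested. In edgeR's quasi-likelihood test with lavage as a block and Benjamini-Hochberg adjustment over all 18302 genes tested, 3 members were higher in TREM-1+ cells (H3c2, H3c3 and H4c14) and 2 were lower (H1f2 and H4c3). These 5 of 60 stood against a background of 9.82% of all genes called, 3.1% higher and 6.72% lower, so that the share of members called was near that of all genes. The median log2 fold change was 0.05 over the 60 members and 0.0043 over all genes tested. The other 12 members had no test. H3c8, H2bc22, H2ac12, H2bc9, H2bc14 and H1f8 had 45 to 95 counts over the 12 libraries, H2bc27, H2bc1 and H1f10 had 6, 2 and 1, and H1f7, H1f9 and H2ac1 had 0. The tested members were 7 linker histone, 16 H2A, 13 H2B, 11 H3 and 13 H4 genes.

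**Figure D1:**
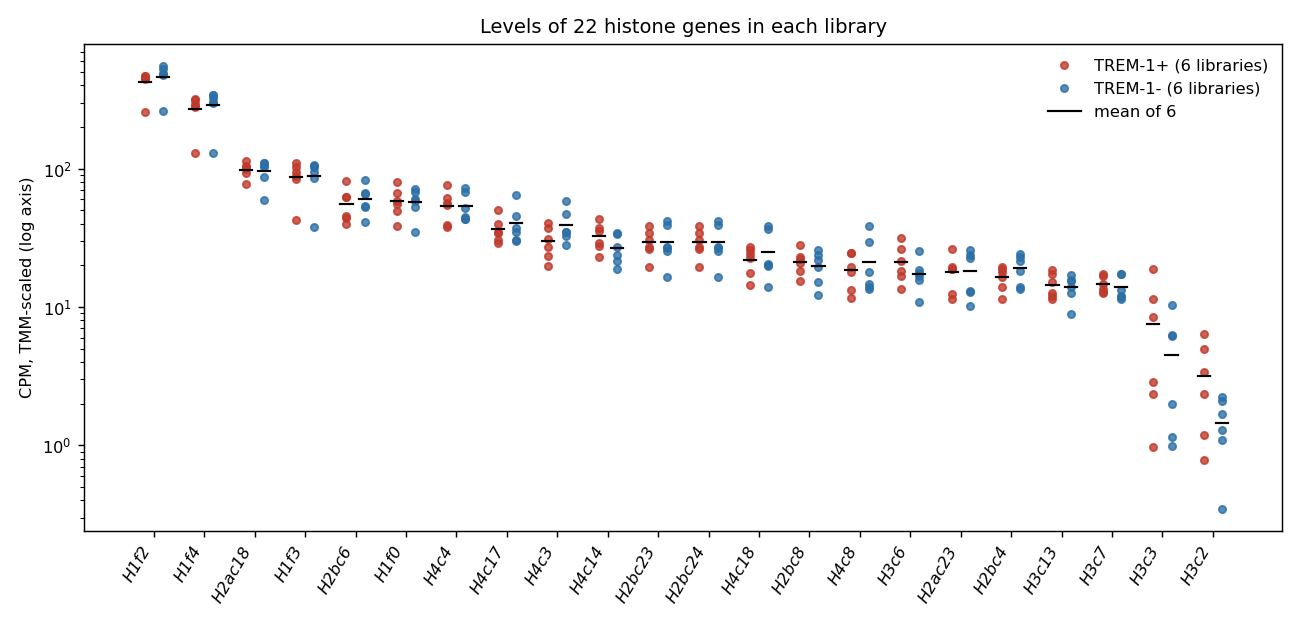
Each point is the level of 1 histone gene in 1 library, in TMM-scaled CPM on a log axis, for the 22 genes given in full, with TREM-1+ left of TREM-1- and bars at the mean of 6 libraries. H1f2 and H1f4 stand above all other members, and the lowest point of each H1 gene's 2 groups is the library of lavage 6.

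Linker histone genes held most of the member counts, which were not divided by transcript length. Longer transcripts give more counts, and the annotated transcript of H1f2 has 1560 bases against 586 for H2ac18. The class shares below are therefore shares of counts and not of RNA molecules, and class shares per length were not worked out. The histone variants made independently of DNA replication are not members and have no part in the shares given here. Their sum exceeded the H1 sum in every library. The 2 leading genes, H1f2 and H1f4, which encode the somatic linker histones H1.2 and H1.4, held 45.0% ± 3.2 of all member counts in TREM-1+ and 47.2% ± 3.4 in TREM-1- libraries (SD, n = 6 each). The 10 leading members held 74.9% ± 1.7 in TREM-1+ and 76.9% ± 1.8 in TREM-1- libraries. By class, linker histones held 54.9% ± 3.9 of member counts in TREM-1+ and 56.9% ± 4.4 in TREM-1- libraries. H4 held 14.4% ± 3.2 in TREM-1+ and 14.7% ± 3.9 in TREM-1- libraries. H2A held 12.9% ± 1.0 in TREM-1+ and 11.9% ± 0.7 in TREM-1- libraries, and H2B held 11.6% ± 0.8 in TREM-1+ and 11.5% ± 0.8 in TREM-1- libraries. H3 held the smallest share, with 6.1% ± 1.7 in TREM-1+ and 4.9% ± 0.7 in TREM-1- libraries. Per length, as CPM per kilobase of the longest GENCODE transcript averaged over the 12 libraries, H1f2 led with 283, followed by H2ac18 with 165, H1f4 with 145, H4c17 with 95.3, H4c18 with 54.4 and H4c4 with 47.3, and H1f0 came to 28.1. GENCODE gives H1f3 a long transcript, which put it at 11.8 and rank 22. By the RefSeq gene span, a length chosen after seeing the data, H1f2 came to 610, H1f4 to 357, H2ac18 to 174, H4c4 to 134, H1f3 to 113 and H1f0 to 25.2, so that H1f2 led by either length while the order below it changed.

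How far each member can be told from its relatives differed. The share of a member's 31-base words found in no other gene's GENCODE transcripts had a median of 36.5% over the 60 tested members, was under 50% for 37 and at least 90% for 7. H1f2, H1f3, H1f0 and H4c14 had 88.6%, 96.3%, 93.4% and 97.4% of words of their own over the whole annotated transcript. That transcript can run far beyond the RefSeq gene span: 7425 bases against 776 for H1f3, 1560 against 725 for H1f2 and 1630 against 384 for H4c14. Their shares within that span were not worked out and may be lower. H2ac18 had 0, with 89.6% of its words shared with its neighbour H2ac19, and H4c17 shared 91.7% of its words with H4c18. H2bc23 and H2bc24 had identical counts in every library, so that their values are 1 measurement given under both names. Both rows were kept, in the H2B sum and under each name in the counts of tested members. Reads shared by such genes were split by the authors' quantification. The values of those genes are uncertain one by one, whereas a sum over a class is less affected by sharing within it. Sharing also crossed classes: H1f4 had 65.3% of words of its own, and 24.5% were shared with the H2B gene H2bc6. H2bc6 had 81.8% of its own and shared 10.5% with H1f4, which class sums do not remove.

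H1f2 (gene 50708, chromosome 13) was lower in TREM-1+ cells in all 6 lavages, by a small amount. Over lavages 1 to 6, its level was 464, 454, 452, 441, 470 and 254 CPM in TREM-1+ libraries, against 524, 550, 484, 481, 472 and 261 CPM in TREM-1- libraries. The groups overlapped, and lavage 6 stood far below the other 5 in both. The means were 422 ± 83 CPM in the TREM-1+ and 462 ± 103 CPM in the TREM-1- libraries, and the log2 fold change within lavages was -0.12 ± 0.035 (SE, adjusted p = 0.0224 by edgeR). With scaling by library totals alone, which moved the median of all genes tested to 0.13, that value became 0.0076, so that the call concerns H1f2 relative to other genes under TMM. The call was also lost when lavage 1, 2 or 4 was left out (adjusted p = 0.117, 0.134 and 0.0613 by edgeR).

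H1f4 was 318, 293, 281, 282, 315 and 129 CPM in TREM-1+ libraries of lavages 1 to 6, against 323, 342, 301, 300, 338 and 129 CPM in TREM-1- libraries. It too was lower in TREM-1+ cells in 6 of 6 pairs, but its log2 fold change of -0.09 ± 0.035 (SE) did not pass (adjusted p = 0.113 by edgeR), and with scaling by library totals it was 0.04. H1f3, which encodes H1.3, gave 94.1, 103, 87.9, 84.7, 110 and 42.3 CPM in TREM-1+ libraries and 103, 105, 84.8, 94.1, 107 and 37.8 CPM in TREM-1- libraries. No direction was common to its pairs, which were higher in 3 and lower in 3 (log2 fold change -0.01 ± 0.048, SE). H1f0, the linker histone of cells that have stopped dividing, gave 66.4, 49.0, 58.4, 55.7, 80.6 and 38.5 CPM in TREM-1+ libraries and 68.2, 52.5, 60.3, 58.3, 70.8 and 35.0 CPM in TREM-1- libraries. Its log2 fold change was 0.01 ± 0.055 (SE). H1f1, H1f5 and the testis form H1f6 averaged 0.751 to 4.02 CPM in either fraction and were not called. Summed over the 11 H1 genes, the log2 ratio of TREM-1+ to TREM-1- was -0.11, -0.22, -0.08, -0.11, -0.02 and 0.0035 in lavages 1 to 6.

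**Figure D2:**
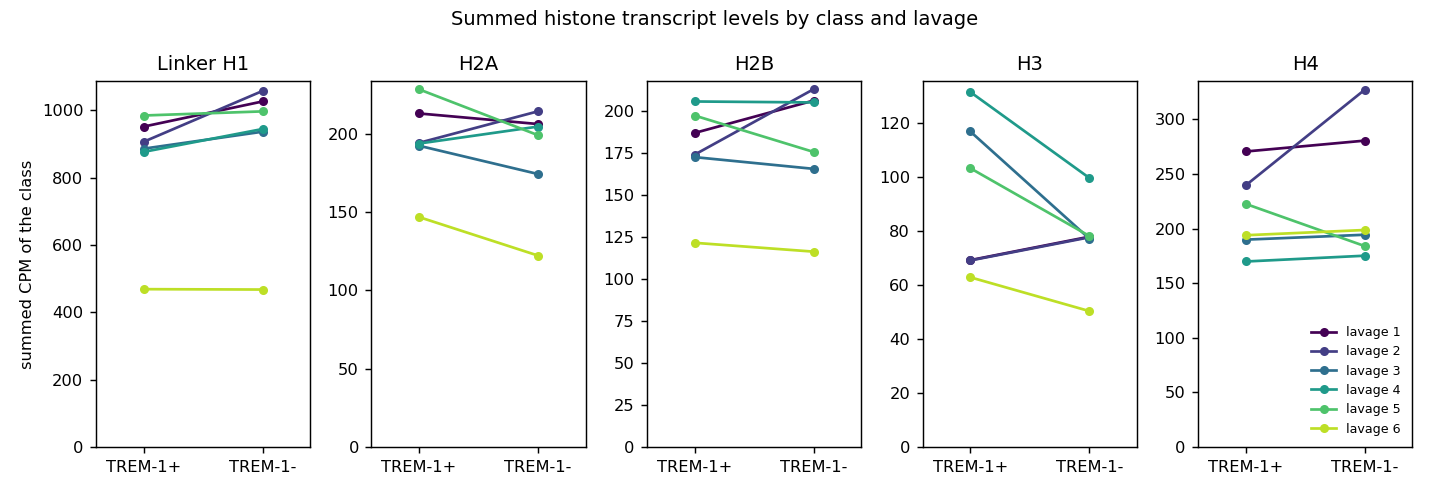
Each line joins the summed CPM of a histone class in the TREM-1+ and the TREM-1- library of 1 lavage, with each vertical axis starting at 0. Linker histones lie at 469 and 467 CPM in lavage 6 and at 876 CPM or more elsewhere, while H3 is higher in TREM-1+ cells in lavages 3 to 6 and lower in lavages 1 and 2.

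Linker histone RNA stood apart in 1 lavage by far more than it differed between the fractions. The H1 sum was 469 CPM in the TREM-1+ and 467 CPM in the TREM-1- library of lavage 6, against 876 to 984 CPM in the other 5 TREM-1+ and 936 to 1057 CPM in the other 5 TREM-1- libraries. Relative to the geometric mean of the other lavages, with both fractions averaged and a pseudocount of 0.1 CPM, H1f4 reached 41.7% in lavage 6, H1f3 41.3%, H1f5 42.8%, H1f2 53.9% and H1f0 59.9%. All 7 tested linker histones were below that mean of the other lavages, and 5 of the 7 had their lowest value of each fraction in lavage 6. Core histones were also low: 13 of 13 H2B, 11 of 11 H3, 11 of 16 H2A and 10 of 13 H4 genes lay below that mean. H4 moved least, with a median log2 difference of -0.21 against -1.18 for H1, and 0 of the 13 H4 genes had their lowest value of both fractions in lavage 6. H4c4, the most abundant H4 gene, stood at 101% of the mean of the other lavages.

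Over all 60 tested members the median log2 difference of lavage 6 from the other lavages was -0.56, while over all 18302 genes tested it was -0.00027. Lavage 6 held the lowest value of both fractions for 16 of the 60 members, or 26.7%, against 3.25% of all genes tested. For lavages 1 to 5 the share of members with both lowest values lay between 0 and 5%, against 3.64% to 12.1% of all genes tested. The lavage 6 libraries held 17011206 (TREM-1+) and 17120978 counts (TREM-1-), within the range of the others, and the sum of 50 DNA replication and S phase genes was 363 CPM in the TREM-1+ and 331 CPM in the TREM-1- cells of lavage 6, also within it. A pair of other lists also stood apart in lavage 6. The replication-independent histone variants had their lowest sums there, 1079 CPM in the TREM-1+ and 1060 CPM in the TREM-1- cells, and monocyte and interstitial macrophage markers their highest, 1235 CPM in the TREM-1+ and 1330 CPM in the TREM-1- cells, against 647 to 862 CPM in the other TREM-1+ libraries and 736 to 994 CPM in the other TREM-1- libraries. Their part in the low histone levels was not tested. Because each lavage gave both fractions, the block on lavage removes this difference from the comparison of TREM-1+ with TREM-1- cells. Without lavage 6, the log2 fold change of H1f2 was -0.13 (adjusted p = 0.0303 by edgeR).

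**Figure D3:**
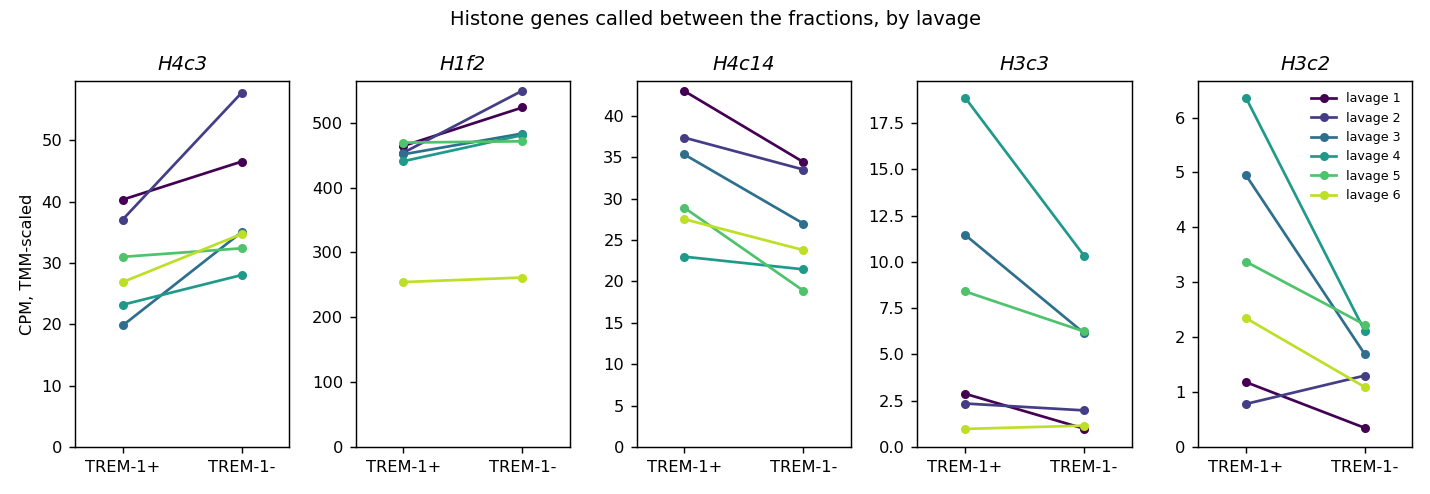
Each line joins the TMM-scaled CPM of 1 gene in the TREM-1+ and the TREM-1- library of a lavage, for the 5 histone genes past an adjusted p of 0.05, with vertical axes from 0. All 6 lines of H4c3 and H1f2 lie lower on the TREM-1+ side and all 6 of H4c14 higher, while 5 of 6 lines of H3c3 and of H3c2 are higher there.

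Of the H4 genes, which all encode the same or nearly the same protein, H4c3 was lower and H4c14 higher in TREM-1+ cells in every lavage. H4c3 (gene 319155, chromosome 13) gave 40.3, 37.1, 19.8, 23.2, 31.01 and 26.9 CPM in TREM-1+ libraries of lavages 1 to 6, against 46.6, 57.8, 35.1, 28.0, 32.4 and 34.7 CPM in TREM-1- libraries. The ranges overlapped, but each TREM-1+ value was below its own partner. The means were 29.7 ± 8.0 CPM in the TREM-1+ and 39.1 ± 11.02 CPM in the TREM-1- libraries (SD, n = 6 each), with a log2 fold change of -0.40 ± 0.08 (SE, adjusted p = 0.0011 by edgeR). The call held with each lavage left out in turn (adjusted p between 0.000426 and 0.0149 by edgeR). Over its annotated transcript of 820 bases H4c3 had 77.8% of 31-base words of its own and shared 22.2% with H4c1. Its RefSeq span is 375 bases, so its value too depends on how shared reads were split.

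H4c14 (gene 97122), in the smaller histone cluster on chromosome 3, gave 43.0, 37.4, 35.3, 23.0, 28.9 and 27.5 CPM in TREM-1+ libraries, against 34.4, 33.5, 27.0, 21.5, 18.9 and 23.8 CPM in TREM-1- libraries. The ranges overlapped, and each TREM-1+ value exceeded its partner. The means were 32.5 ± 7.4 CPM in the TREM-1+ and 26.5 ± 6.4 CPM in the TREM-1- libraries (SD, n = 6 each), and the log2 fold change was 0.30 ± 0.08 (SE, adjusted p = 0.0077 by edgeR). The call held with each lavage left out in turn, most narrowly without lavage 5 (adjusted p = 0.04996 by edgeR), and was lost in lavages 3 to 6 alone (adjusted p = 0.0709 by edgeR).

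The other 11 H4 genes were not called. H4c4 gave 75.7, 60.9, 37.9, 38.9, 56.5 and 54.3 CPM in TREM-1+ libraries, against 67.5, 71.9, 44.9, 43.0, 42.9 and 51.8 CPM in TREM-1- libraries, with a log2 fold change of 0.01 ± 0.071 (SE). H4c17 gave 29.0 to 49.8 CPM in the TREM-1+ and 29.9 to 64.0 CPM in the TREM-1- libraries, and its near copy H4c18 gave 14.5 to 27.2 CPM in the TREM-1+ and 13.9 to 38.5 CPM in the TREM-1- libraries. H4c8 averaged 18.6 ± 5.5 CPM in the TREM-1+ and 21.25 ± 10.2 CPM in the TREM-1- libraries (SD, n = 6 each). The low gene H4c6 had the widest fold of the class, with a log2 fold change of 0.94 ± 0.36 (SE), but at 2.11 ± 1.38 CPM in the TREM-1+ and 1.07 ± 0.59 CPM in the TREM-1- libraries it did not pass (adjusted p = 0.106 by edgeR). Summed over the class, the log2 ratio of TREM-1+ to TREM-1- was -0.05, -0.45, -0.03, -0.04, 0.28 and -0.04 in lavages 1 to 6.

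Both H3 genes that were called were higher in TREM-1+ cells. Of 11 H3 genes tested, 9 had a fold change above 0 and 2 were called, with a median log2 fold change of 0.27 beside 0.0043 over all genes. H3c3 (gene 319148, chromosome 13) gave 2.87, 2.35, 11.5, 18.9, 8.41 and 0.973 CPM in TREM-1+ libraries of lavages 1 to 6, against 0.99, 1.98, 6.15, 10.3, 6.24 and 1.15 CPM in TREM-1- libraries. It was higher in TREM-1+ cells in 5 of 6 pairs, and lavages 3 to 5 were high in both fractions. The means were 7.49 ± 6.88 CPM in the TREM-1+ and 4.47 ± 3.73 CPM in the TREM-1- libraries (SD, n = 6 each), with a log2 fold change of 0.67 ± 0.19 (SE, adjusted p = 0.0152 by edgeR). H3c2 (gene 319150, chromosome 13) gave 1.18, 0.782, 4.95, 6.36, 3.37 and 2.35 CPM in TREM-1+ libraries, against 0.346, 1.30, 1.69, 2.11, 2.23 and 1.09 CPM in TREM-1- libraries. The TREM-1+ libraries of lavages 3 to 6 lay above all 6 TREM-1- libraries. The means were 3.17 ± 2.18 CPM in the TREM-1+ and 1.46 ± 0.70 CPM in the TREM-1- libraries, with a log2 fold change of 0.99 ± 0.30 (SE, adjusted p = 0.031 by edgeR). H3c3 had 44.8% of 31-base words of its own and shared 50% with H3c2, so the pair are not independent. H3c2 had 38.1% of its own and shared 51.5% with H3c10, so both values depend on how shared reads were split.

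Both H3 calls depended on single lavages. Each was lost without lavage 1, 3 or 4, with an adjusted p by edgeR of 0.0792, 0.0538 and 0.12 for H3c3 and of 0.0923, 0.101 and 0.166 for H3c2, and that of H3c2 was lost without lavage 6 too (0.0809). The H3 sum had a log2 ratio of TREM-1+ to TREM-1- of -0.17 and -0.17 in lavages 1 and 2 and of 0.60, 0.40, 0.40 and 0.32 in lavages 3 to 6. The T and innate lymphoid cell markers divided the lavages in the same place. They summed to 11.8 and 10.3 CPM in TREM-1+ against 9.6 and 8.8 CPM in TREM-1- cells of lavages 1 and 2, and to 125, 103, 72.4 and 58.2 CPM in TREM-1+ against 52.7, 64.1, 37.8 and 33.4 CPM in TREM-1- cells of lavages 3 to 6. The lymphoid list was not alone in this. The B and plasma cell, mast cell and basophil, and erythroid cell and platelet markers also summed lower in lavages 1 and 2. So did the genes of G2 and mitosis, and each of these lists did so in both fractions. Other lists, such as the neutrophil markers, did not divide the lavages there. The part of lymphoid or other RNA in the H3 result was not tested.

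H3c6, the most abundant H3 gene, gave 16.6, 18.2, 26.1, 31.6, 21.5 and 13.5 CPM in TREM-1+ libraries, against 18.4, 16.8, 15.7, 25.2, 17.5 and 10.8 CPM in TREM-1- libraries. It was higher in TREM-1+ cells in 5 of 6 pairs, but its log2 fold change of 0.27 ± 0.099 (SE) did not pass (adjusted p = 0.0848 by edgeR). H3c7 averaged 14.5 ± 2.0 CPM in the TREM-1+ and 13.8 ± 2.7 CPM in the TREM-1- libraries, and H3c13 averaged 14.5 ± 2.9 CPM in the TREM-1+ and 13.9 ± 2.9 CPM in the TREM-1- libraries (SD, n = 6 each). H3c14, chosen after its values were seen, gave 5.39, 4.75, 19.5, 12.2, 9.998 and 7.21 CPM in TREM-1+ libraries, against 5.44, 6.71, 7.19, 8.76, 6.95 and 5.69 CPM in TREM-1- libraries. It was higher in TREM-1+ cells in lavages 3 to 6 and not in lavages 1 and 2 (log2 fold change 0.40 ± 0.18, SE, adjusted p = 0.207 by edgeR).

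With all lavages and TMM scaling 0 of the H2A and H2B genes were called by edgeR. An unadjusted p under 0.05 was found for 1 H2A and 2 H2B genes, and for 3604 of all 18302 genes tested. H2ac20 averaged 13.9 CPM in the TREM-1+ and 11.9 CPM in the TREM-1- libraries, higher in 5 of 6 pairs (log2 fold change 0.24 ± 0.13, SE, adjusted p = 0.318 by edgeR). It was called higher without lavage 3, without lavages 3 and 4, and in lavages 1 and 2 alone. DESeq2 and limma-voom called none of either class. H2ac18, the most abundant H2A gene, gave 104, 92.5, 102, 98.7, 113 and 77.0 CPM in TREM-1+ libraries of lavages 1 to 6, against 107, 103, 86.7, 110, 110 and 59.4 CPM in TREM-1- libraries. The groups overlapped fully apart from the low value of lavage 6 (log2 fold change 0.05 ± 0.058, SE). H2ac23 averaged 17.8 ± 5.4 CPM in the TREM-1+ and 18.0 ± 6.7 CPM in the TREM-1- libraries. H2ac25, which the RefSeq table names H2aw, was lower in TREM-1+ cells in 6 of 6 pairs at 4.52 ± 1.15 CPM, against 5.74 ± 1.03 CPM in TREM-1- libraries, but did not pass (log2 fold change -0.36 ± 0.17, SE, adjusted p = 0.215 by edgeR). The median log2 fold change was 0.07 over the 16 H2A genes, 12 of which lay above 0.

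H2bc6 was the most abundant H2B gene, with 45.3, 43.8, 61.9, 81.4, 62.4 and 39.5 CPM in TREM-1+ libraries, against 52.6, 53.3, 66.7, 83.0, 65.6 and 41.2 CPM in TREM-1- libraries. It was lower in TREM-1+ cells in 6 of 6 pairs, by -0.13 ± 0.054 on the log2 scale (SE), and did not pass (adjusted p = 0.155 by edgeR). With scaling by library totals the value was -0.0003. Lavages 3 to 5 were high and lavages 1, 2 and 6 low in both fractions. H2bc23 and H2bc24, with their identical counts, averaged 29.3 ± 6.7 CPM in the TREM-1+ and 29.4 ± 9.4 CPM in the TREM-1- libraries. H2bc8 averaged 21.24 ± 4.4 CPM in the TREM-1+ and 19.6 ± 5.1 CPM in the TREM-1- libraries, and H2bc4 averaged 16.3 ± 3.1 CPM in the TREM-1+ and 19.0 ± 4.5 CPM in the TREM-1- libraries (SD, n = 6 each). Neither was called. In all, 6 of the 60 tested members had the same sign in all 6 pairs, against 13.4% of all genes tested: H1f2, H1f4, H2bc6, H2ac25 and H4c3 were lower in TREM-1+ cells, and H4c14 was higher. H1f4 and H2bc6 share sequence, so the pair are not independent.

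**Figure D4:**
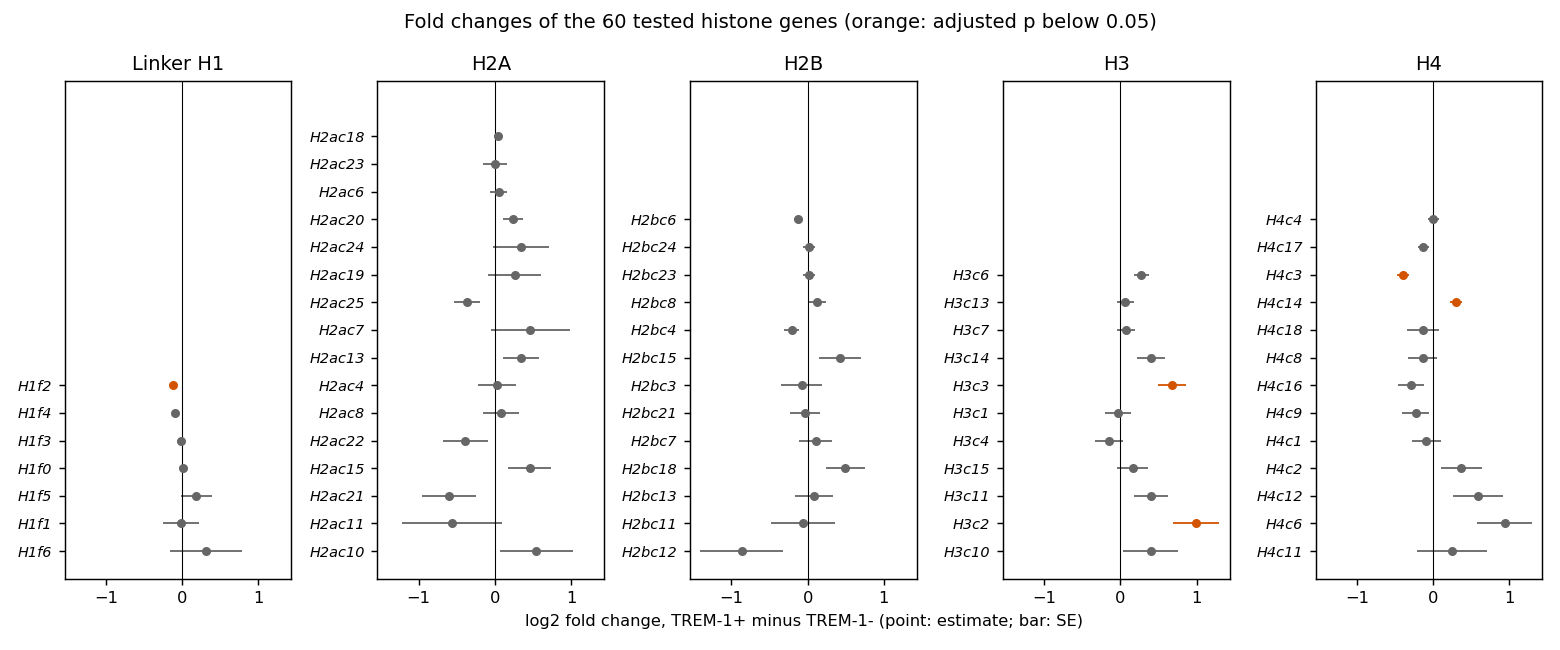
Points give the log2 fold change (TREM-1+ minus TREM-1-) of each of the 60 tested histone genes and bars its SE, by class, with the most abundant gene of each class at the top and genes past an adjusted p of 0.05 in orange. The most abundant genes have short bars but do not all lie near 0, with H4c3 at -0.40 and H4c14 at 0.30 (SE 0.08 each). Fold changes beyond 0.5 on either side, from -0.87 to 0.99, belong to genes with SEs of 0.19 to 0.65.

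Members moved differently in different lavages. The median log2 difference over the tested members was -0.13 and -0.28 in lavages 1 and 2, 0.17 in lavage 3, -0.07 in lavage 4, and 0.29 and 0.20 in lavages 5 and 6, whereas the median over all genes tested stayed between -0.01 and 0.0022 in each. A fit of lavages 1 and 2 alone called 8 members lower (H1f2, H2ac11, H2bc4, H2bc6, H4c17, H4c18, H4c3 and H4c8) and 3 higher (H2ac19, H2ac20 and H4c14), where 6.16% of the 18551 genes tested were called lower and 2.29% higher. A fit of lavages 3 to 6 alone called 1 lower (H4c3) and 3 higher (H3c2, H3c6 and H3c14), where 4.3% of the 18651 genes tested were called lower and 1.96% higher. Whether the fold changes differed between these sets of lavages was not tested.

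Histone variants made independently of DNA replication summed to 1079 to 1451 CPM in the TREM-1+ and 1060 to 1423 CPM in the TREM-1- libraries, and none of the 8 tested was called with all lavages and TMM scaling. H3f3b, one of the genes for histone H3.3, gave 877, 845, 876, 1068, 871 and 639 CPM in TREM-1+ libraries of lavages 1 to 6, against 839, 755, 935, 1024, 886 and 635 CPM in TREM-1- libraries. Its log2 fold change was 0.03 ± 0.033 (SE), and lavage 6 was again the lowest in both. H3f3a, which encodes the same protein, averaged 268 CPM in the TREM-1+ and 289 CPM in the TREM-1- libraries. By edgeR 0 of the 8 passed, and DESeq2 and limma-voom also called 0. At an unadjusted p under 0.05 edgeR had 1 higher and 2 lower, where 3604 of all 18302 genes tested passed. The lowest adjusted p by edgeR was 0.083, for H3f3a. With scaling by library totals 2 were higher and 0 lower, without lavage 6 the count was 0 higher and 1 lower, and in lavages 1 and 2 alone 1 was higher and 2 were lower.

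The factors that make and process histone mRNA were present in both fractions. Of 29 tested, 1 was higher in TREM-1+ cells and 1 lower, against 3.1% of all genes called higher and 6.72% lower, with a median log2 fold change of 0.0049. E2f1, a transcription factor of the G1 to S step, averaged 16.3 ± 2.2 CPM in the TREM-1+ and 12.1 ± 2.9 CPM in the TREM-1- libraries, higher in 6 of 6 pairs (log2 fold change 0.45, adjusted p = 0.0089 by edgeR). Tut7, a uridylyltransferase of which histone mRNAs are known substrates, averaged 311 ± 14.5 CPM in the TREM-1+ and 340 ± 19.8 CPM in the TREM-1- libraries, lower in 6 of 6 pairs (log2 fold change -0.13, adjusted p = 0.0105 by edgeR), which with scaling by library totals became -0.00019. The E2f1 call was lost without lavage 6, and the Tut7 call without lavage 1 or 6. With scaling by library totals 5 of the list were higher and 0 lower. Slbp gave 39.4, 42.4, 25.9, 34.7, 36.5 and 35.9 CPM in TREM-1+ libraries, against 44.8, 41.6, 33.1, 31.4, 36.1 and 40.9 CPM in TREM-1- libraries, a log2 fold change of -0.09 (adjusted p = 0.547 by edgeR). Npat, the coactivator of histone gene clusters, averaged 22.4 CPM in the TREM-1+ and 19.3 CPM in the TREM-1- libraries and was not called (adjusted p = 0.151 by edgeR).

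Among histone chaperones, which carry histones to and from DNA, 3 of 29 tested were higher and 2 lower in TREM-1+ cells, against 3.1% of all genes called higher and 6.72% lower. With scaling by library totals 11 were higher and 1 lower. Rbbp7, a histone-binding subunit of several chromatin complexes, averaged 21.9 ± 1.5 CPM in the TREM-1+ and 16.96 ± 1.4 CPM in the TREM-1- libraries, without overlap between the groups (log2 fold change 0.37, adjusted p = 0.0053 by edgeR). Anp32b and Tonsl, too, were higher in TREM-1+ cells, with log2 fold changes of 0.19 and 0.57 (adjusted p = 0.0343 and 0.027 by edgeR). Daxx, which deposits H3.3 together with Atrx, was lower in 6 of 6 pairs at 55.7 ± 18.3 CPM in the TREM-1+ and 72.8 ± 23.3 CPM in the TREM-1- libraries (log2 fold change -0.39, adjusted p = 3.7e-06 by edgeR). Ubn1 (adjusted p = 0.0233 by edgeR), a subunit of the HIRA complex, was lower in 6 of 6 pairs too, by -0.12 on the log2 scale, which with scaling by library totals became 0.0033. The count called higher was 1 without lavage 4 or 6, and the count called lower was 1 without lavage 1, 2, 3 or 6.

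Of 43 tested genes of DNA replication and S phase, 5 were higher in TREM-1+ cells and 0 lower, against 3.1% of all genes called higher and 6.72% lower, with a median log2 fold change of 0.15. With scaling by library totals 10 were higher and 0 lower. The 5 called under TMM were the helicase subunits Mcm2, Mcm3 and Mcm6 (log2 fold changes 0.89, 0.58 and 0.40), Orc1 of the origin recognition complex (0.93) and Rrm1 of ribonucleotide reductase (0.65). DESeq2 and limma-voom also called 5 higher and 0 lower. At an unadjusted p under 0.05 edgeR had 11 higher and 0 lower, where 3604 of all 18302 genes tested passed in either direction. The 5 calls became 2 without lavage 1, 5 or 6 and 3 without lavage 2 or 4. Levels were low: Mcm2 averaged 4.08 ± 1.37 CPM in the TREM-1+ and 2.18 ± 0.51 CPM in the TREM-1- libraries, and Orc1 averaged 2.95 ± 0.36 CPM in the TREM-1+ and 1.59 ± 0.53 CPM in the TREM-1- libraries. The sum of the list was 360 to 402 CPM in the TREM-1+ and 324 to 357 CPM in the TREM-1- libraries, higher in 6 of 6 pairs. Pcna, the sliding clamp, averaged 34.6 CPM in the TREM-1+ and 33.0 CPM in the TREM-1- libraries and was not called (adjusted p = 0.7 by edgeR). The summed lymphoid and alveolar macrophage markers and the listed precursor genes Cd34 and Kit were higher in the same libraries, whereas the summed neutrophil markers were lower. Which cells carried these transcripts, and their part in the differences, was not tested. Mcm5 was higher in 6 of 6 pairs without passing (log2 fold change 0.30, adjusted p = 0.275 by edgeR).

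Genes of G2 and mitosis were mostly not called. Of 25 tested, 0 were higher and 1 was lower in TREM-1+ cells by edgeR. With 2 higher and 2 lower at an unadjusted p under 0.05, they stood against 3604 of all 18302 genes tested. DESeq2 also called 0 higher and 1 lower, and limma-voom 1 higher and 0 lower. Mki67 gave 50.5, 56.8, 49.7, 80.6, 57.6 and 61.2 CPM in TREM-1+ libraries, against 52.3, 64.4, 68.7, 87.4, 65.4 and 62.5 CPM in TREM-1- libraries, lower in each pair (log2 fold change -0.17, adjusted p = 0.0475 by edgeR). That call was lost with any single lavage left out, and with scaling by library totals the value was -0.04 (adjusted p = 0.722 by edgeR). Top2a, a marker of dividing cells, gave 0.462, 1.17, 4.00, 6.26, 4.39 and 1.03 CPM in TREM-1+ libraries, against 1.43, 1.25, 1.42, 2.57, 2.93 and 1.76 CPM in TREM-1- libraries. It was high in lavages 3 to 5 of the TREM-1+ libraries, as H3c3 was, and its log2 fold change of 0.27 did not pass (adjusted p = 0.749 by edgeR).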

How the data were processed

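RNA was measured in 6 TREM-1+ and 6 TREM-1- libraries, made per the labels' protocols with a stranded total RNA kit with ribosomal RNA depletion and sequenced as paired 100-base reads. Named without a role per the submitters' processing notes are build GRCm39, edgeR 3.42.4, kallisto 0.45.0 and R 4.3.0. The authors deposited estimated counts per gene, which were whole numbers already (rounding changed 0 values), and a table of log2 CPM. The deposited log2 CPM values were recomputed from the counts to within 5e-09 and were otherwise not used. How multi-mapping reads were split and whether strand was used is not stated, so near-identical histone genes, and overlapping genes, are uncertain one by one. No sample column was left unused (0).

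Genes passing edgeR's filter (minimum count 10, total 15) entered edgeR 4.0.16 under R 4.3.3 (TMM, quasi-likelihood F test, robust, lavage as a block, TREM-1+ minus TREM-1-), with Benjamini-Hochberg adjustment over all 18302 genes and a threshold of 0.05. SEs come from the F statistic. The design pairs fractions by lavage, and the correlation of paired deviations was 0.13 to 0.50. The floor of 3 counts was 0.148 to 0.308 CPM. Alternatives were DESeq2 1.42.0, limma-voom (limma 3.58.1), other scalings and filters, no replicate block, and lavages left out. The procedure was tested on simulated data. Members given in full were those called and the 20 highest by mean CPM of at least 5; from each list, called genes were named, and Mki67, Top2a, Pcna, Mcm5, Slbp, H3f3b and Trem1 always. H3f3a, Npat, H1f1, H1f5, H1f6, H2ac20, H2ac25, H3c14, H4c6 and Siglecf, and members called under a single alternative, were named after their values were seen. Stem-loops came from GENCODE vM21 transcripts and promoters from RefSeq GRCm38.p6. The members and the gene lists were chosen with earlier results of these data known.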

Additional observations from a re-analysis of the deposited data

Results flagged for a closer look

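Lavage 6 stood far below the other 5 lavages in the linker histone genes of both fractions, by a gap that made up most of the range of the 6 libraries. H1f2 was 254 CPM in the TREM-1+ library of lavage 6, against 441 to 470 CPM in the other TREM-1+ libraries, and 261 CPM in its TREM-1- library, against 472 to 550 CPM in the other TREM-1- libraries. H1f4 was 128.7 CPM in the TREM-1+ and 128.8 CPM in the TREM-1- cells of lavage 6. H1f3 was 42.3 CPM in the TREM-1+ and 37.8 CPM in the TREM-1- cells. The sum of the H1 genes was 468.5 CPM in the TREM-1+ and 467.4 CPM in the TREM-1- cells. Both fractions of a lavage come from the same pooled fluid, and H1f2, H1f4 and H1f3 enter the sum, so these 8 values are not independent. Of 81 value sets looked at, 8 held such a sample, where chance flags about 1 in 20.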

How the results depend on the processing

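DESeq2, limma-voom, RLE size factors, no filter on low counts and a filter at a mean of 1 CPM gave the same 3 members higher and 2 lower as the edgeR fit. With library totals alone, 7 members were higher (H2ac18, H3c14, H3c2, H3c3, H3c6, H4c14 and H4c6) and 1 lower (H4c3), the log2 fold change of H1f2 turned to 0.0076 (adjusted p = 0.934 by edgeR), and over all genes the split became 1880 higher and 376 lower, against 568 higher and 1229 lower with TMM. Without the replicate block that pairs the fractions of a lavage, 83 genes were called in place of 1797, with 0 members higher and 0 lower. Leaving out 1 lavage in turn gave 1 to 4 members higher, 1 to 2 lower and 1421 to 1588 genes called. H4c3 was called in each of these fits and H4c14 too. In lavages 1 and 2 alone 3 members were higher and 8 lower, with a median log2 fold change of members of -0.17, and in lavages 3 to 6 alone 1168 genes were called, with 3 members higher and 1 lower. Without lavages 3 and 4, 1 member was lower and 2 higher. The cause of these shifts was not tested. Leaving H1f0 and H1f10 out of the H1 share gave 53.2% in TREM-1+ and 55.3% in TREM-1- libraries. CPM per kilobase of the RefSeq span, chosen after seeing the data, in place of the longest GENCODE transcript put H1f2, H1f4 and H2ac18 at ranks 1 to 3 and moved H1f3 from rank 22 to rank 5. SEs of members ran up to 0.65 on the log2 scale, with the widest among those under 5 CPM, where small differences were not detectable at this depth.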
